A study of Homo sapiens with 8 samples.

Results

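Of the 59106 ATAC-seq peaks on chromosomes 1-22 of a HepG2 library, 1767 lay at the start of a long non-coding RNA (lncRNA) gene and away from every protein-coding start. HepG2 cells come from a human liver tumour and keep much of the character of hepatocytes. In ATAC-seq, Tn5 transposase cuts open chromatin and tags the cut ends for sequencing. A peak was a member when its summit, the position of highest enrichment, lay within 1000 bp of the start of the canonical transcript of a GENCODE 44 lncRNA gene and more than 2000 bp from the start of any transcript of a protein-coding gene. The members were 2.99% of the peaks on these chromosomes (exact binomial 95% interval 2.85 to 3.13%) and 35.3% of the 5008 peaks at a canonical lncRNA start, and the other 3241 of these lay within 2000 bp of a coding start. The list held 60628 peaks in all. The cells had been fixed with 0.1% formaldehyde (FA) and cryopreserved. The experiment comprised 8 such libraries, with 0.1, 0.5, 1 and 5% FA each followed by cryopreservation in 1 library and by flash freezing in another, and the others were not analysed here. With 1 library there was no replicate and no test between conditions, so all intervals cover counting error only.

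Long non-coding RNAs are transcripts without a coding frame that are capped, often spliced and made by RNA polymerase II, much like messenger RNAs. Many of their genes start beside a coding gene and share its open promoter, while the rest start on their own, in some cases at a CpG island and in others at sequences that resemble enhancers. The best known regulate chromatin, serve as scaffolds in the nucleus or host small nucleolar RNAs (snoRNAs) and microRNAs in their introns.

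The label of the cells was checked on coding genes. A peak lay at the start of 14 of 16 genes of hepatocyte character, among them HNF4A, FGA and APOB, and at 1 of 8 genes of other liver cells, CD68. For comparison, 62.1% of all 19111 coding genes had a peak within 1000 bp of the start. ALB and AFP, both plasma protein genes, had none. The caller's values implied a whole number of fragments at 99.7% of the summits on these chromosomes, within 0.01 fragments, and the total depth of the library is unknown.

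The sequences at 8 summits show what was open at some of the strongest named lncRNA starts. They are the members with the highest fold enrichment that held a motif and belonged to a list, at most 2 from each list. Each reaches 75 bp to either side of the summit, is taken from hg38 and is written 5′ to 3′ on the strand of the lncRNA. Capitals mark letters of a motif lying within 50 bp of the summit. Listed first are housekeeping lncRNAs and host genes. NORAD, which sequesters PUMILIO proteins, holds the GABPA motif CCGGAAGT of ETS factors in reverse. DANCR, a lncRNA of many cell types, holds an NFY motif (CCAATGG) and an SP/KLF motif (GGGGCGGGG, reversed). The snoRNA host SNHG30 holds an NFY motif and the E-box CACGTG of MYC and MAX. MIR762HG holds a GABPA motif.
NORAD, chr20:36050942-36051092, minus strand: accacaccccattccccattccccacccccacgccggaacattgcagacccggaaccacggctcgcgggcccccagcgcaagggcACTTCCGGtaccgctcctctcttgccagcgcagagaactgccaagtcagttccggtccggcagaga
DANCR, chr4:52712209-52712359, plus strand: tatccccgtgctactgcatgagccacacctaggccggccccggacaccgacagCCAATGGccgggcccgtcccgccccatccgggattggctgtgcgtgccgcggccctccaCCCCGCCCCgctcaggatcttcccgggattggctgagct
SNHG30, chr17:35567969-35568119, plus strand: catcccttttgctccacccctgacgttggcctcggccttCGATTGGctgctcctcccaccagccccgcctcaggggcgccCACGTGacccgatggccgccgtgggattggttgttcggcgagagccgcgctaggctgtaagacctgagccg
MIR762HG, chr16:30875282-30875432, plus strand: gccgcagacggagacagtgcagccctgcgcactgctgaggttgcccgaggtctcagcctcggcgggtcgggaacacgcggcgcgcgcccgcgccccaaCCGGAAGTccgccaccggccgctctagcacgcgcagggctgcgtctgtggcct

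The other 4 come from the cancer list, from the 10 highest folds and from the surroundings of liver genes. LUCAT1, a lncRNA known to respond to stress, holds the AP-1 motif TGANTCA 22 to 28 bp downstream of the summit. LINC02490, whose nearest coding gene is ONECUT1 of the hepatocyte nuclear factor 6 family, holds an NFY motif. ENSG00000291051 has an NFY motif across its summit, and DDX11L16, at the end of chromosome 16, has the CEBPB motif TTGCNNAA from 2 bp before to 5 bp after it.
LUCAT1, chr5:91314401-91314551, minus strand: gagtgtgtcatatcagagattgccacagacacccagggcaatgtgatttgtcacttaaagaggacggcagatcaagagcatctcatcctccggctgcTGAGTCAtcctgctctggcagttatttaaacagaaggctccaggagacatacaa
LINC02490, chr15:53034924-53035074, plus strand: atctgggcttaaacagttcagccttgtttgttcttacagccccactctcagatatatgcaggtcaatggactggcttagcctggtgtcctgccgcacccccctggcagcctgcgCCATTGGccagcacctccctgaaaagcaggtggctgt
ENSG00000291051, chr16:75517318-75517468, minus strand: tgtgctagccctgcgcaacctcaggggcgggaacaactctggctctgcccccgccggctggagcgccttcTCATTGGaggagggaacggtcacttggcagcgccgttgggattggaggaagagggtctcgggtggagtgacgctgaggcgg
DDX11L16, chr16:10989-11139, plus strand: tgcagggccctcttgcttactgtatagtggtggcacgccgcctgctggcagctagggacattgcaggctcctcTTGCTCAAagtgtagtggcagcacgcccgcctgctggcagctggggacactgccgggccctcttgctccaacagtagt

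A further 3, chosen after their values were seen, show motifs of liver factors and of CTCF. ENSG00000288974, near FOXA2, holds the HNF4A motif CAAAGTNCA and an NFY motif. ENSG00000272858, near XBP1, holds the FOXA motif TGTTTGC in reverse. MIR3142HG holds a motif of CTCF, the factor that bounds chromatin loops.
ENSG00000288974, chr20:22524152-22524302, minus strand: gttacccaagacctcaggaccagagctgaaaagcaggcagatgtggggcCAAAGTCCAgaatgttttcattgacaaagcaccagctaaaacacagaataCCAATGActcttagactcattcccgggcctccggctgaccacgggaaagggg
ENSG00000272858, chr22:28813884-28814034, plus strand: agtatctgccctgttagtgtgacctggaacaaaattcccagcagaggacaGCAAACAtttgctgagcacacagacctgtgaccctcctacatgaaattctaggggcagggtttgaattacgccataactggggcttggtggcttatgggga
MIR3142HG, chr5:160439278-160439428, plus strand: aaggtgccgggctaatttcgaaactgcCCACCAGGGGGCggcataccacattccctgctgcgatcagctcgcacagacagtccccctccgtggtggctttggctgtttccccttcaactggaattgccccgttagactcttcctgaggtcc

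Most lncRNA genes that start away from coding genes had no peak. A start with a peak is called open here. Of 13674 such genes, 1720 had a member within 1000 bp of the canonical start, a share of 12.6% (interval 12.03 to 13.1%). This share is the background against which each list of genes is read. Over the starts of all transcripts the share was 14.7%, or 2099 of 14263 genes. Of the 4716 lncRNA genes starting within 2000 bp of a coding start, 55.2% had a peak of any kind at the canonical start, and 62.1% of 19111 coding genes had a peak within 1000 bp of theirs. A peak was thus far less frequent at lncRNA starts on their own than at those beside a coding gene. The peak of the coding gene itself can count for the latter, so the contrast follows in part from the grouping. Some members served several genes: 174 lay at the starts of 2 or more lncRNA genes, 152 of them with starts on both strands.

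Members were intermediate between coding promoters and distal peaks in strength. The median fold enrichment, the fragments at the summit over the local background as the peak caller gives it, was 11.8 in members (interval of the median 11.4 to 12.2, quartiles 8.12 and 17.1). It was 15.7 in the 13197 peaks within 1000 bp of a canonical coding start (called coding-start peaks) and 9.79 in the 34544 peaks over 2000 bp from the start of any transcript (called distal peaks). The weakest member had a fold of 3.88 and the strongest 45.6. Members had a median of 21 fragments at the summit, against 38 in coding-start and 13 in distal peaks, and median widths were 187, 250 and 156 bp. A -log10 q of 20 or more was reached by 50.9% of members, 72.3% of coding-start peaks and 33.2% of distal peaks. Members with at most 10 fragments at the summit numbered 345, or 19.5%, against 4.58% of coding-start peaks.

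The gap in fold between members and coding-start peaks moved with base composition and with peak width. Within quintiles of GC content of all peaks, the median fold of members was 1.01 and 0.959 times that of coding-start peaks in the 2 quintiles of lowest GC, 0.765 and 0.744 times in the next 2 and 0.930 times in the richest. Within quintiles of width the ratio went from 1.10 in the narrowest and 1.12 in the next to 0.886 in the widest. Members were thus the higher among narrow peaks and the lower among wide ones.

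**Figure D1:**
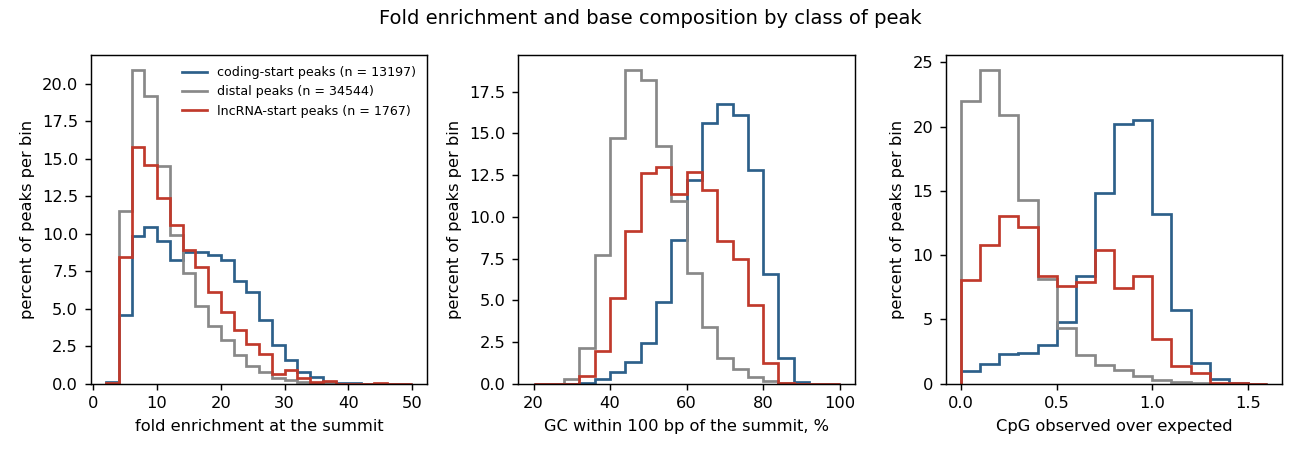
Percent of peaks per bin of fold enrichment at the summit (left), GC content within 100 bp of the summit in percent (middle) and the ratio of observed to expected CpG (right), for lncRNA-start peaks (red), coding-start peaks (blue) and distal peaks (grey). The red line lies between the others for fold and GC, with medians of 11.8 and 58.7%, and has separate low and high modes for CpG.

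The sequence at the summits was of 2 kinds. Median GC content within 100 bp of the summit was 58.7% in members, 68.7% in coding-start peaks and 49.3% in distal peaks, while the flanks 2000 bp away had 46.0, 45.0 and 44.03%. The ratio of observed to expected CpG, which is high where CpGs are unmethylated in the germ line, had a median of 0.473 in members, 0.859 in coding-start peaks and 0.216 in distal peaks. Its distribution in members had a mode between 0.2 and 0.3, above the distal mode between 0.1 and 0.2, and another above 0.7, where coding-start peaks lie. With CpG-rich defined as a ratio of at least 0.6 and at least 50% GC, 675 members (38.2%, interval 35.9 to 40.5%) were CpG-rich, against 84.2% of coding-start and 4.83% of distal peaks.

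CpG-rich members were closer than the others to coding-start peaks taken as a whole. Their median fold was 14.9 (interval 14.0 to 15.6), and that of the other 1092 members was 10.6 (10.1 to 10.9). Coding-start peaks had 16.5 where CpG-rich and 11.1 where not. The summit lay within 100 bp of the annotated start in 44.7% of CpG-rich members and in 29.9% of the others, against 57.1 and 32.7% of coding-start peaks. Motifs of promoter factors were found in 29.0% of CpG-rich members and in 9.62% of the others, against 37.9 and 20.9% of coding-start peaks. Motifs of liver factors went the other way, with 4.44 and 20.5%, against 3.10 and 13.1%.

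Summits gathered just upstream of the lncRNA start. Of the members, 35.5% lay within 100 bp of it, 55.3% within 250 bp and 24.9% over 500 bp away, against 53.2, 73.2 and 13.1% of coding-start peaks around theirs. The summit was upstream of the start in 65.2% of members (interval 62.9 to 67.4%) and in 76.2% of coding-start peaks. Members within 100 bp of the start had a median fold of 14.0, and those over 500 bp away had 10.4. Peaks with lncRNA starts on both strands had a median fold of 15.3 (13.6 to 16.6) and a median GC of 65.9%, and peaks with starts on 1 strand had 11.5 (11.0 to 11.98) and 57.7%.

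**Figure D2:**
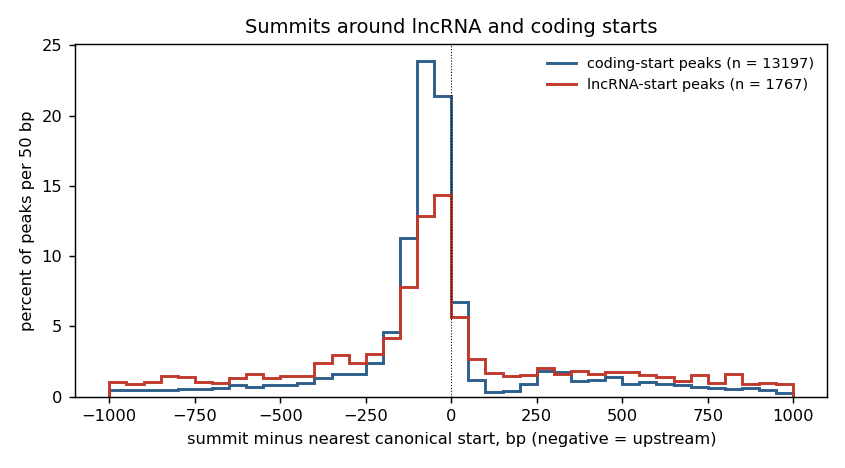
Percent of peaks per 50 bp of signed distance, in bp, from the nearest canonical start to the summit, for lncRNA-start peaks (red) and coding-start peaks (blue); negative distances are upstream. Both lines peak in the 100 bp upstream of the start, and the red one is lower there and higher beyond 500 bp.

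The peaks just outside the rule's limits were mostly weak, with 5 of 6 under the lower quartile of members. Just inside 1000 bp of the lncRNA start, members at ENSG00000289489, ENSG00000287180 and LINC02576 had folds of 6.39, 16.6 and 15.6, and 3 peaks at 1001 bp had 7.19, 10.7 and 7.17. At the other limit, members 2010 bp from EMX1, 2034 bp from HAAO and 2050 bp from C1QTNF1 had folds of 12.7, 11.7 and 10.1. Peaks at SBDSP1, LINC00938 and NCBP2-AS1, between 1986 and 2000 bp from a coding start, were left out with folds of 5.53, 7.80 and 6.91.

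Motifs of liver factors and of CTCF were more frequent at members than at coding promoters, and those of promoter factors less so. A motif is a string of letters searched on both strands within 50 bp of the summit, and a match is a description, not a bound site. HNF4A, HNF1 (GTTAATNAT), FOXA (TGTTTAC or TGTTTGC) and CEBPB direct hepatocyte genes. At least 1 of these 4 motifs was found in 254 members (14.4%, interval 12.8 to 16.1%), 4.68% of coding-start peaks and 22.7% of distal peaks. A motif of GABPA, NRF1 (GCGCATGCG), SP/KLF, NFY (CCAATCA or CCAATCG, as well as CCAATGA or CCAATGG), YY1 (AAGATGGCG) or CRE (TGACGTCA), all common in promoters, was found in 301 members (17.0%, 15.3 to 18.9%), 35.2% of coding-start and 5.12% of distal peaks. Both kinds stood together in 20 members.

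The CTCF motif was far more frequent in members than in coding-start peaks and somewhat less so than in distal peaks. It was found in 79 members (4.47%, 3.56 to 5.54%), in 5.58% of distal peaks and in 0.765% of coding-start peaks, and in 0.0849% of the windows 2000 bp to either side of members. The share was 4.30% in CpG-rich members and 4.58% in the others. Only 1.30% of members had the CTCF motif within 25 bp of the summit, so most of these matches reached more than 25 bp from it.

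Among liver factors, the HNF4A motif was found in 41 members (2.32%), 6.83 times its share in their flanks, while coding-start peaks had 0.568%. The FOXA motif, that of the pioneer factors of liver, was found in 134 members (7.58%, 6.39 to 8.92%), against 2.29% in flanks and 1.97% in coding-start peaks. CEBPB, at 5.15%, was close to its flank share of 4.53%. AP-1 was found in 97 members (5.49%), against 2.80% in flanks. Distal peaks had higher shares of each: 3.82% for HNF4A, 12.1% for FOXA, 8.08% for CEBPB and 7.10% for AP-1. In CpG-rich members the HNF4A motif was found in 0.296%, against 0.593% in their flanks, and FOXA in 2.22%, against 2.07%. TATAAA, the core of the TATA box, was found in 1.08% of members and in 7.61% of flank windows, whose GC content is lower.

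Of the promoter motifs, NFY was the most frequent, in 154 members (8.72%, 7.44 to 10.1%). Members with it had a median fold of 17.7 (15.5 to 19.5), and those without it had 11.4 (10.9 to 11.8). SP/KLF was found in 105 members (5.94%) and 15.2% of coding-start peaks, GABPA in 1.36 and 4.48%, and the E-box CACGTG in 3.45 and 4.64%. GABPA, in 24 members, went with a median fold of 17.4 (13.0 to 21.8), and CRE, in 15, with 18.1 (10.3 to 24.6). The members with a FOXA motif had a median of 11.8 and those with HNF4A 10.3, and for each motif the interval included the median of 11.8 in members without it. REST, which silences nerve genes, had its motif TTCAGCACC in 3 members.

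**Figure D3:**
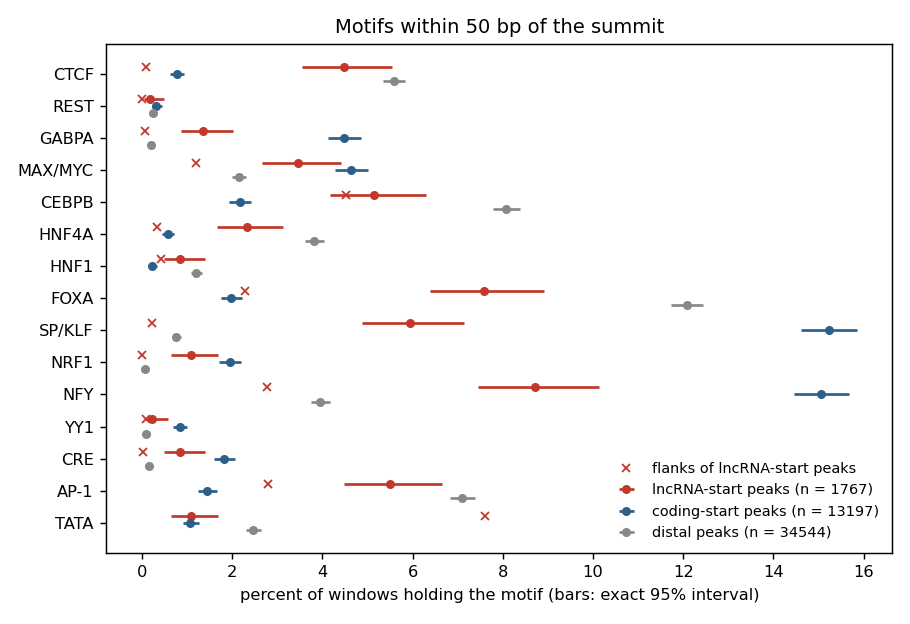
Percent of windows within 50 bp of the summit that hold each of 15 motifs, for lncRNA-start (red), coding-start (blue) and distal peaks (grey), with exact 95% intervals; crosses give the flanks of lncRNA-start peaks. For SP/KLF, NFY and FOXA the red point lies between the blue and the grey one, and for CTCF it is at 4.47%, below the grey one at 5.58%.

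Named lncRNAs of many tissues had a peak more often than the background share. These are lncRNAs expressed in most cells, and 12 of the 17 that start away from coding genes had a member at the canonical start (70.6%, interval 44.04 to 89.7%), against 12.6% of all. The list was chosen with earlier results of these data known. Better annotated genes also had peaks more often, with 22.1% for other symbols and 24.0% for genes with 10 or more annotated transcripts. Of the 12, NORAD had the highest fold, 26.1 with 65 fragments at the summit, 1 bp from its start. DANCR followed with 25.4 and 97 fragments, and its summit was 217 bp upstream. These are the summits whose ETS and NFY motifs are printed above.

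NUTM2A-AS1 had a fold of 24.4, and its summit sequence had 2 near copies elsewhere in the genome. KCNQ1OT1, the imprinted antisense RNA within KCNQ1, had a fold of 22.5 with an NFY motif, 185 bp upstream of its start. LINC00667 had 19.3 and EPB41L4A-AS1 18.4. All 6 lay above the upper quartile of members, 17.1.

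The most abundant nuclear lncRNAs were not the highest. MALAT1, which sits in nuclear speckles, had a fold of 14.9 with 46 fragments and a peak of 483 bp. NEAT1, the scaffold of paraspeckles, had 3.88, the lowest fold of all members, although 24 fragments lay at its summit, more than the median of 21. Its summit was 485 bp upstream of the canonical start. DLEU2, on chromosome 13, had 6.68 with 25 fragments, and PVT1, beside MYC, had 7.80 with 11. TTN-AS1 and CYTOR, with 17.1 and 15.3, lay between. The 5 that lacked a peak by the rule were LINC-PINT, MIAT, NUTM2B-AS1, LINC00342 and LINC00963, and 3 of these (LINC-PINT, MIAT and LINC00963) had a peak at the start of another transcript.

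Few liver lncRNAs had a peak at the canonical start. Of 17 that start away from coding genes, LINC00261, which lies beside FOXA2 and is known from endoderm, was the 1 with a member (5.88%, interval 0.149 to 28.7%), and the interval includes the background of 12.6%. It had peaks 60 and 750 bp downstream of its start, with folds of 8.54 and 7.95. Over all transcript starts, 6 of 18 had a peak (33.3%, 13.3 to 59.0%), with an interval that includes the 14.7% of all. Among these were HULC with a fold of 11.99, LINC01554 with 11.6, LINC01485 with 7.48 and HNF4A-AS1 with 13.6.

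The choice of canonical transcript therefore decided this list. HNF4A-AS1 had a peak 1051 bp from its canonical start, just outside the window, with a fold of 20.4. MIR122HG, the host of the main microRNA of hepatocytes, had no peak within 32036 bp of its canonical start. FAM99A and FAM99B, lncRNAs of adult liver, had their nearest peaks at 3945 and 4521 bp.

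Among lncRNAs of fetal liver and cancer, 4 of 19 had a member (21.1%, interval 6.05 to 45.6%), and the interval includes the background of 12.6%. Over all transcript starts, 7 of 24 had a peak (29.2%, 12.6 to 51.1%), with an interval that includes the 14.7% of all. LUCAT1 was the highest of the 4 with 23.5, and its summit was 74 bp upstream of the start in a sequence that was not CpG-rich. PCAT6 had 18.2 and an SP/KLF motif, 49 bp downstream of its start and 2412 bp from KDM5B. MINCR, known as a MYC-induced RNA, had 15.2, and CCAT2, upstream of MYC, had 14.5 over 499 bp at 41.3% GC. H19, the imprinted fetal RNA, had no peak within 15701 bp of its canonical start.

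The lists of blood, nerve and muscle had few genes with a peak at the canonical start, and their intervals included the background of 12.6%. None of 15 lncRNAs of blood had a member, and the interval reached 21.8%. Of 15 of nerve, 2 had one: MIR9-1HG with 16.7, 772 bp upstream of its start, and LINC01122 with 8.65. Of 9 of muscle, LINC00881 had one, with 13.9. Over all transcript starts, 6 of 17 of the nerve list had a peak (35.3%, interval 14.2 to 61.7%), a share above the 14.7% of all and near that of the liver list, with an interval that includes 14.7%. The counts were 1 of 17 for blood and 1 of 9 for muscle. The lists share genes, since 6 of the nerve list and 2 of the blood list stand in another list too.

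**Figure D4:**
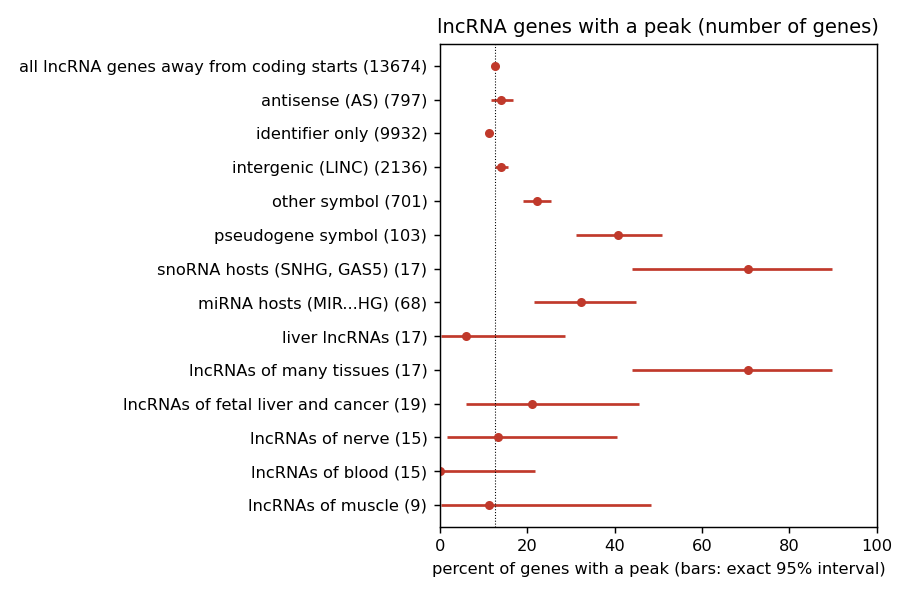
Percent of lncRNA genes that start away from coding genes and have a lncRNA-start peak, by kind of name and by list, with exact 95% intervals and the number of genes in parentheses; the dotted line is the share over all such genes, 12.6%. The intervals of snoRNA hosts, microRNA hosts, pseudogene symbols and lncRNAs of many tissues lie above the line.

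Host genes of small RNAs were open more often than other lncRNA genes. Of 85 genes named as hosts of snoRNAs or microRNAs, 34 had a member (40.0%, interval 29.5 to 51.2%), with a median fold of 16.2. The 17 snoRNA hosts, whose introns carry guides for ribosomal RNA modification, had 12 (70.6%, 44.04 to 89.7%) and a median fold of 19.6. SNHG30 was the highest with 31.2, 72 bp upstream of its start. SNHG11 had 25.0, SNHG6 24.0, SNHG21 23.5, SNHG16 22.2 and SNHG8 20.8. SNHG7, at 12.8, was the lowest of them, still above the median of all members.

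The 68 microRNA hosts had 22 (32.4%, 21.5 to 44.8%) and a median fold of 14.6. MIR762HG had 26.8. MIR194-2HG, which carries miR-194 and miR-192 of liver and gut, had 25.0 with 73 fragments, 114 bp upstream of its start. MIRLET7A1HG, the host of let-7 microRNAs, had 22.4 with 113 fragments. MIR210HG, whose microRNA responds to hypoxia, had 19.1 with an NFY motif. MIR17HG, the host of the oncogenic miR-17 cluster, had 15.5, and MIR34AHG, whose microRNA is a target of p53, had 12.4 at 2 bp from its start. The lowest, MIR7-3HG, had 5.95 with 6 fragments, and its window held the REST motif.

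Genes with fuller annotation had peaks more often. The share was 11.3% for genes known only by an identifier (1121 of 9932), 14.0% for LINC genes, 14.1% for antisense names and 22.1% for other symbols (155 of 701). With 1 annotated transcript it was 10.4% and with 10 or more 24.0% (21.0 to 27.1%). Starts outside coding genes had a peak in 14.2% of cases, and those inside a coding gene in 8.81% on the opposite strand and 8.66% on the same strand. By distance from the nearest coding start, the share rose from 12.4% at 2 to 5 kb to 16.5% at 10 to 50 kb and was 5.22% (4.38 to 6.17%) beyond 200 kb. Across chromosomes it ranged from 7.17% on chromosome 4 to 16.7% on chromosome 20.

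The surroundings of liver genes held 22 members. The nearest coding gene was a liver transcription factor for 16 of them, and 13 of 72 lncRNA genes nearest to such a factor had one (18.1%, interval 9.98 to 28.9%). That interval includes the background of 12.6%. For plasma protein genes the count was 6 of 13 (46.2%, 19.2 to 74.9%), against 12.6% of all. Genes were assigned to the nearest coding gene by their start, and members by their summit. The genes named below need not match these counts.

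Around CEBPB, a factor of the acute phase response, 3 lncRNA genes had peaks: LINC01273 with 27.98 and 117 fragments, 18351 bp from the coding start, LINC01271 with 20.1 and an AP-1 motif, and LINC01270 with 12.9 and a FOXA motif. FOXA2, a pioneer factor of endoderm, had members at LINC00261, at ENSG00000288974 with 19.5, at ENSG00000283072 with 11.8 and at ENSG00000204684 with 10.7. The summit of ENSG00000288974 lay 18 bp from the start and carried the HNF4A motif printed above. ENSG00000272858, near the secretory regulator XBP1, had 21.0 and the FOXA motif, 955 bp upstream of its start. LINC02490 had 21.2 and was 243921 bp from ONECUT1.

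Beside plasma protein genes, ENSG00000287558 near PLG, the gene of plasminogen, had 14.2. ENSG00000286714 near CP, the gene of ceruloplasmin, had 12.1 with 53 fragments, 2278 bp from the coding start. LINC00612 near A2M had 9.05 and a second peak with 4.91, ENSG00000289937 near HP 6.67 and HRG-AS1 near KNG1 6.48 with a FOXA motif. The median of the 6 was 7.86, under the lower quartile of all members, and 4 of them lay below the median of 11.8.

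**Figure D5:**
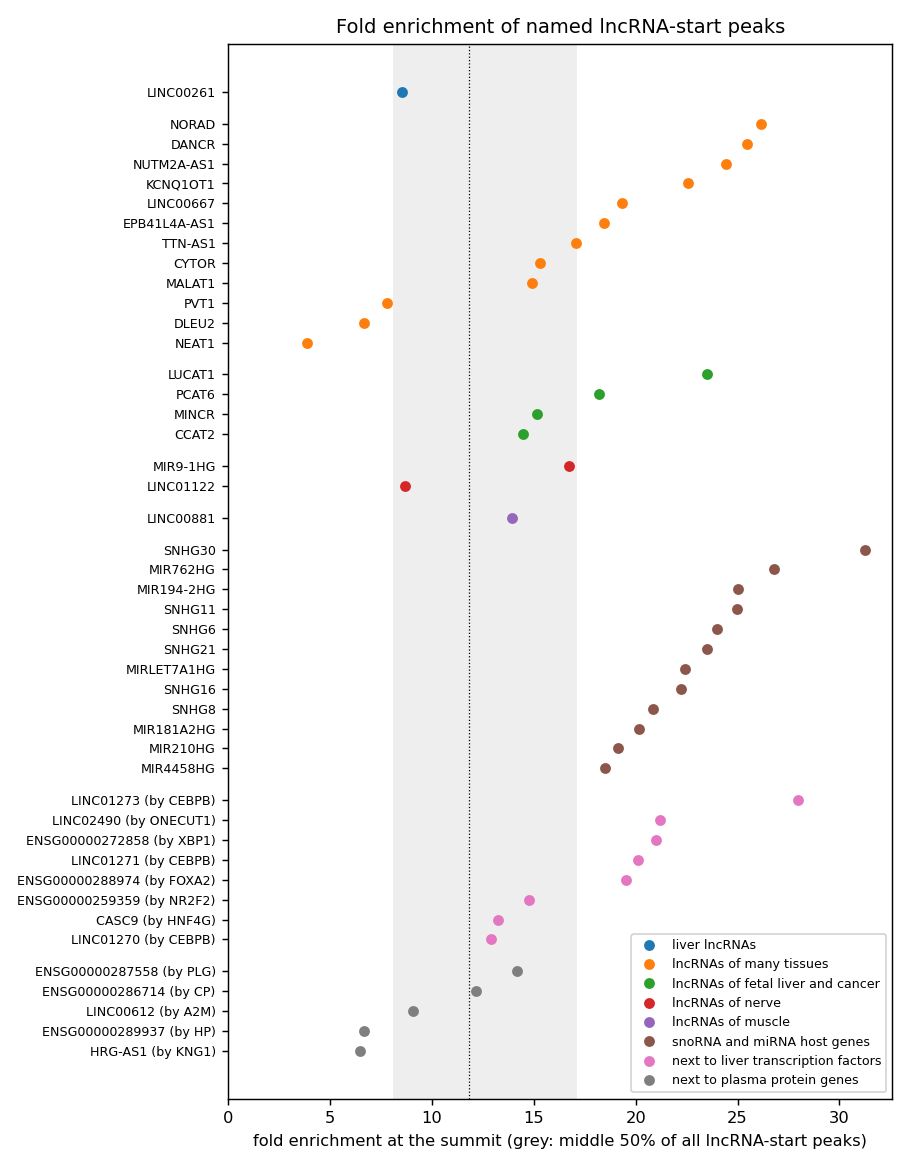
Fold enrichment at the summit of named lncRNA-start peaks, 1 point a gene, coloured by list, with at most 12 genes a list and at most 8 for neighbours of liver genes; the grey band spans the quartiles of all lncRNA-start peaks, 8.12 to 17.1, and the dotted line their median of 11.8. Host genes and NORAD, DANCR and NUTM2A-AS1 lie to the right of the band, and NEAT1 lies farthest to the left.

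The 10 highest members were at ANKRD20A5P with 45.6, DDX11L16 with 37.7, ABCC6P2 with 37.6, ENSG00000286833 with 37.4, ENSG00000291051 with 34.9, ENSG00000271398 with 34.6, CROCCP2 with 33.9, GIHCG with 33.6, ENSG00000291149 with 33.5 and ENSG00000291077 with 33.4. At 6 of them, at 17 of the 100 highest and at 12.1% of all members, the summit sequence had a near copy in hg38, that is, at least 95% identity over at least 120 bp. CROCCP2 had the most fragments of any member, 198. DDX11L16 had 8 near copies, and GIHCG and ENSG00000291051 had none. Reads of such copies can be assigned to the wrong one, and the part of this in the folds was not tested.

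Members as a whole had near copies more often than other peaks. The share was 12.1% (213 peaks, interval 10.6 to 13.7%), against 1.40% of coding-start and 4.95% of distal peaks. Members with a near copy had a median fold of 13.2 (12.2 to 14.7), and the others had 11.6 (11.1 to 11.996). LncRNA genes named as a pseudogene of a coding gene had a member in 42 of 103 cases (40.8%, 31.2 to 50.9%), and 24 of the 48 peaks at such genes had a near copy. The start of a gene of another type lay within 1000 bp of 206 members, 107 of them a transcribed unprocessed pseudogene.

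Repeats with 10 or more near copies gave 26 members (1.47%, interval 0.963 to 2.15%). The share was 1.96% in distal peaks and 0.0379% in coding-start peaks. The search kept a limited number of matches on each chromosome, so the large counts of copies are lower limits. LINC01876 had a fold of 25.3 with at least 466 near copies and a FOXA motif. NIHCOLE, a lncRNA known from liver cancer, had 19.7 with at least 410 and a FOXA motif too. ENSG00000249413, at 19.3 with at least 136 near copies, held both HNF4A and FOXA motifs. CASC9, whose nearest coding gene is HNF4G, had 13.2 with at least 277. CYTOR and MIR4435-2HG, a duplicated pair of genes on chromosome 2, had 15.3 and 17.5, and each had 1 near copy and the motifs of NFY and AP-1.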

How the data were processed

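Reads had been trimmed (cutadapt), aligned to GRCh38 by Bowtie2 within snakePipes and cleared of duplicates (samtools) by the authors, who then ran MACS2 at standard parameters on this library alone; the sample records also name bcl2fastq and deepTools 3.5.5. The MACS2 version, and whether read ends were shifted to the Tn5 cut, are not given in the sources used here; a shift would move summits by a few bases. Peak names refer to short fragments, so weak starts may have been missed. The deposited ratio is the fold at the summit over local background. The caller's -log10 p and -log10 q were deposited too, the deposited score is 10 times the latter, and the deposited position gives the summit.

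Summits were placed on canonical starts of GENCODE 44 on chromosomes 1-22, a placement tested on simulated data. Fragments at summits were solved from fold and p by a Poisson model, tested in the same way. A second whole solution existed for 45 members, where the one nearer a whole number was taken. GC and CpG were taken within 100 bp and motifs within 50 bp of the summit in hg38, and near copies came from blastn 2.17.0. Scripts ran under Python 3.11.15 with scipy 1.17.1, pysam 0.24.0, numpy 2.4.6 and pandas 2.3.3; samtools 1.23.1 and matplotlib 3.10.9 were used too. Shares carry exact Clopper-Pearson intervals and medians order-statistic intervals at a 95% level. No test was run between groups, since there was 1 library.

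Named genes were list members with a peak (up to 6 a list by fold), those lacking one where few did, the 10 highest folds, 3 peaks on each side of each limit, and neighbours of liver transcription factor and plasma protein genes. The members and lists were chosen with earlier results of these data known, and the splits by CpG, near copies, kinds of name and distance were made after values were seen, as was the naming of liver lncRNAs without a peak, of H19, of further host genes and housekeeping lncRNAs and of members in repeats.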

Additional observations from a re-analysis of the deposited data

Results flagged for a closer look

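Outside the chromosomes analysed, 31 of 1295 peaks on chromosome X met the same rule, and their median fold was 12.4. They stand out only because they lie in data that the comparisons above left out.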

How the results depend on the processing

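No paired analysis was possible because 1 library was analysed. Of the recomputed values, those of gene lists aside, 32 stayed within the interval of the reported value, or within 1.5 times a count, and 29 moved; the cause was not tested beyond what each alternative changes by construction. The number of lncRNA-start peaks, 1767, became 2827 with a window of 2500 bp, 899 at a -log10 q of at least 20 and 658 for genes with a symbol. The share of lncRNA genes with a peak, 12.6%, became 9.90% with a window of 500 bp, 18.5% with 2500 bp, 13.2% with canonical coding starts only, 14.7% with any lncRNA transcript start, 13.1% with any base of the peak in the window, 7.09% at a -log10 q of at least 20 and 16.01% for genes with a symbol. Median fold, 11.8, became 12.4 with 500 bp, 10.9 with 2500 bp, 17.0 at the stricter q and 12.6 for symbols. Median GC, 58.7%, became 60.2, 56.2, 62.2 and 61.2% under the same settings, 59.7% with canonical coding starts only, and 59.4 and 55.7% over 50 and 250 bp to either side. Liver factor motifs, 14.4%, were found in 6.62 and 20.5% within 25 and 100 bp, promoter motifs, 17.0%, in 8.83 and 22.6%, and the CTCF motif in 1.30% within 25 bp; promoter motifs rose to 22.9% at the stricter q. The ratio of median fold to coding-start peaks, 0.755, was 0.857 within quintiles of GC and 0.987 within quintiles of width. Leaving out near copies, an alternative chosen after the data were examined, gave 1554 peaks, a median fold of 11.6 and a ratio of 0.740. Of the recomputed counts of genes in the lists, 42 stayed within 1.5 times and 12 moved. The list of liver lncRNAs had between 0 and 6 genes with a peak over the alternatives, and that of many tissues between 9 and 16. The depth of the library is unknown; 19.5% of members rest on at most 10 fragments, so starts without a peak were not detectable as open at this depth rather than shown to be closed.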
